A study of Mus musculus with 6 samples.

Results

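The EGF family ligands and ERBB receptors were examined in RNA-seq of MAFs, that is, mouse adult fibroblasts cultured as primary cells from ear tissue of C57BL6/J mice (adult females). They were taken as the 10 rows of the gene count table that carry the names of the ligands *Nrg1*, *Areg*, *Ereg*, *Hbegf*, *Btc*, *Tgfa* and *Egf* and of the receptors *Egfr*, *Erbb2* and *Erbb3*, out of 43346 genes in all. Senescent MAFs had been X-ray irradiated with 20 Gy and were cultured for weeks afterwards, and control MAFs were sham irradiated, with 3 libraries in each group. The labels name no genotype, and the study lists these libraries as wild type (WT). All cells were grown at 3% oxygen and had been given 100 nM dexamethasone for 2 hours, with collection 12 hours later, so both groups carry the glucocorticoid treatment and the values describe a single time point. No source used here says whether the replicates came from separate animals or cultures, so p-values measure only the spread between these libraries.

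The ligands of the EGF family are made as membrane-anchored precursors, and membrane proteases release the part that binds the receptor. EGFR, ERBB2, ERBB3 and ERBB4 are receptors that pair on ligand binding and pass the signal to the RAS-ERK and PI3K pathways. ERBB2 has no ligand of its own and acts as a partner, ERBB3 has little kinase activity, and the neuregulins bind ERBB3 and ERBB4. In skin, fibroblasts and keratinocytes exchange these ligands during growth and wound repair, and several of them are listed among the secreted factors of senescent cells.

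In senescent cells, 6 of the 7 ligand genes and *Egfr* rose, and *Egf* and *Erbb2* fell. Of the 10 members, all passed the filter on low counts, 7 were higher and 2 were lower in the quasi-likelihood test of edgeR, where a call needs a Benjamini-Hochberg adjusted p, taken over 17589 genes, of less than 0.05. Over all tested genes, 36.2% were higher and 34.1% lower by this rule, 70.3% in all. The study's methods instead ask for an unadjusted p of less than 0.05 and for a change of more than 1 in either direction on the log2 scale. By these limits the same 7 members were higher and 1, *Erbb2*, was lower, where 17.8% of all tested genes were higher and 12.3% lower, 30.1% in all. For its own count of changed genes, the study's results name a smaller p limit, which was not applied here. The values of both groups did not overlap in 9 members, as in 75.3% of all tested genes, and in 7 of them the senescent values were the higher ones, as in 38.4% of all tested genes. The median log2 fold change was 3.98 over the 7 ligands and 2.69 over the 10 members, against 0.01 over all tested genes. That ligand median is the value of *Areg*, which had 4, 5 and 7 counts in the control libraries. *Areg* passed the filter only through its senescent libraries. When every library had to reach 10 counts, *Areg* was not tested and 6 members were higher.

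Total counts per library lay between 50288454 and 82229553, so that a gene with 0 counts could still be present at up to 0.0572 CPM (counts scaled to a common library size with TMM factors) in the control group or 0.0425 CPM in the senescent group, from counting error alone. *Mki67*, a proliferation marker, was lower in senescent cells (log2 fold change -5.94), and the cell cycle inhibitors *Cdkn1a* (2.33) and *Cdkn2a* (1.90) were higher. Control replicate 1 and senescent replicate 3 stood apart from the other libraries of their groups. The median squared difference between senescent replicates 1 and 2 was 2.33 times the value that chance gives, against 24.8 and 33.2 times for the pairs with senescent replicate 3. Control replicate 1 stood apart less, with 6.04 and 5.17 times for its pairs against 1.81 times between control replicates 2 and 3. Without control replicate 1 or without senescent replicate 3, the counts of members called higher and lower were again 7 and 2.

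Markers of the labelled cell type and of other cell types of the ear were counted for each whole list, and the single markers below that are not the most abundant of their list were named after their values had been seen. All 9 fibroblast markers were detected in both groups, with 3 higher, 5 lower and 1 not called, and their sum was 17803 to 19893 CPM in control and 6706 to 8008 CPM in senescent libraries. The collagen gene *Col1a2* fell (log2 fold change -1.87 ± 0.12, SE), while the proteoglycan genes *Dcn* and *Lum* rose 11.3-fold and 1.80-fold and *Thy1* rose 2.78-fold. The 6 chondrocyte markers, led by *Col2a1*, were all lower in senescent cells, with sums of 4727 to 5255 CPM in control and 336 to 418 CPM in senescent libraries. In bulk samples, fewer cells of a type and less RNA per cell cannot be told apart. The 9 keratinocyte markers summed to 16.4 to 17.0 CPM in control and 23.3 to 24.0 CPM in senescent libraries. Of the 5 that were tested, *Cdh1* (log2 fold change 1.98) and *Ivl* (0 counts in control and 741 to 1222 counts in senescent libraries) were higher, *Trp63* (-1.65) was lower, and *Krt5* (44 to 138 counts over all libraries) and *Krt10* (84 to 159) were not called. The other 4 were below the filter, with *Krt14* at 2 to 12, *Krt1* at 0 to 4, *Epcam* at 1 to 13 and *Lor* at 0 to 6 counts. The 7 macrophage markers present in the table summed to 8.24 to 9.03 CPM in control and 18.7 to 21.8 CPM in senescent libraries, and all 6 that were tested were higher. *Cd68* was at 3.53 ± 0.220 and 4.60 ± 0.405 CPM, *Lyz2* rose 18.1-fold and *Ptprc* 7.74-fold, *Itgam* went from 0, 0 and 1 counts to 38, 29 and 39 counts, and *Tyrobp*, the one not tested, had 0 to 2 counts. The 7 endothelial markers summed to 2.55 to 2.96 CPM in control and 8.17 to 8.71 CPM in senescent libraries. The most abundant was *Tek*, with 81 to 244 counts over all libraries. All 5 that were tested were higher, among them *Kdr* (log2 fold change 3.81), and *Tie1* had 0 to 2 counts. Of all tested genes, 36.2% were higher. *Itgam*, *Ivl*, *Lyz2*, *Ptprc* and *Kdr* had lowest counts of 0, 0, 7, 7 and 8. They did not pass the filter on their control libraries alone, and such genes can hardly be called lower. Sums for Schwann cells and melanocytes, led by *S100b*, were 52.3 to 57.2 CPM in control and 46.7 to 51.9 CPM in senescent libraries, close but without overlap. Of the 5 of these markers that were tested, 1 was higher and 3 were lower. Sums for skeletal muscle, led by *Acta1* (754 to 2093 counts over all libraries), overlapped (15.6 to 20.9 and 15.1 to 27.7 CPM). The part of these cell types in the values below was not tested.

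**Figure D1:**
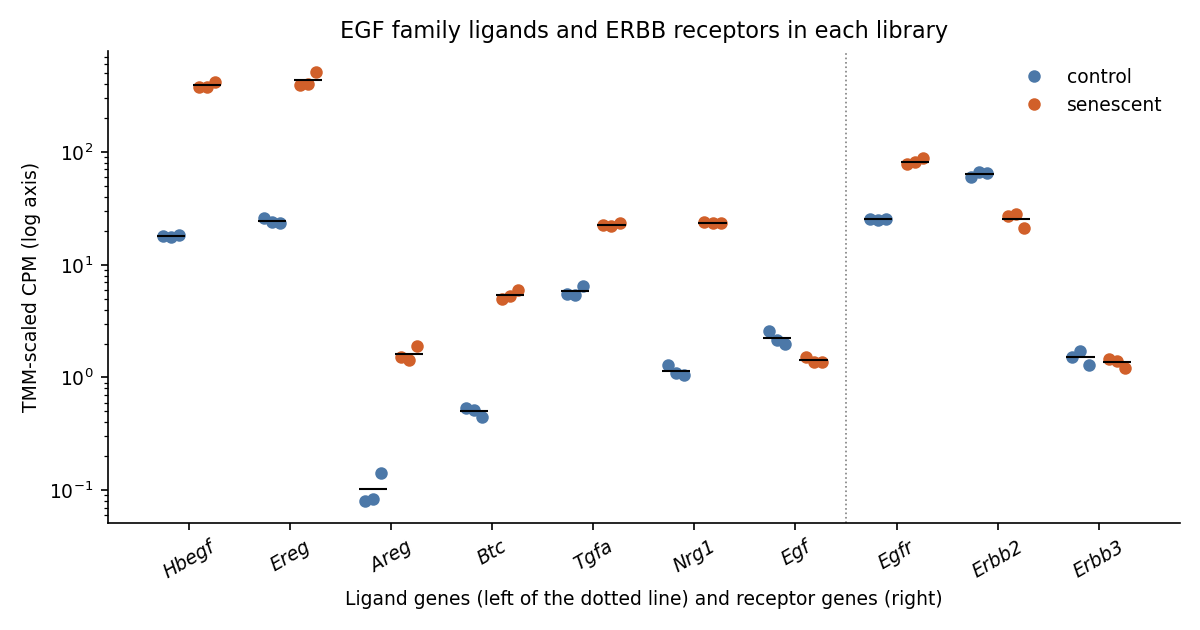
TMM-scaled CPM (log axis) of the 10 genes in each of the 3 control and 3 senescent libraries, with black bars at the group means. The senescent points lie above the control points in 6 ligand genes and *Egfr*, below them in *Egf* and *Erbb2*, and among them in *Erbb3*.

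*Hbegf* (ENSMUSG00000024486, chromosome 18 of mm10 from 36504929 to 36515805) encodes heparin-binding EGF-like growth factor, a ligand of EGFR and ERBB4. It was at 18.2, 17.5 and 18.3 CPM in control replicates 1, 2 and 3 and at 377, 378 and 417 CPM in the senescent ones. Every senescent library was far above every control library, and the spread within a group was small beside the gap. The means were 17.96 ± 0.434 and 391 ± 22.7 CPM (SD, n = 3 per group), or 4.44 ± 0.07 (SE) as a log2 fold change (edgeR adjusted p = 1.02e-08). This was the largest log2 fold change of the 10 members, although its 95% confidence interval (4.28 to 4.61) overlapped those of *Nrg1*, *Ereg* and *Areg*.

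*Nrg1* (ENSMUSG00000062991) encodes neuregulin 1, a ligand of ERBB3 and ERBB4. It was at 1.28, 1.09 and 1.042 CPM in the control libraries and at 24.15, 23.4 and 23.2 CPM in the senescent libraries, a rise of 20.7-fold. The senescent values were the most alike of any member, with a coefficient of variation of 2.03%. On the log2 scale, senescent cells differed by 4.37 ± 0.10 (SE, edgeR adjusted p = 2.60e-08). The interval the count table gives for *Nrg1* (chromosome 8 from 31818028 to 31918203) spans 100176 bases, whereas GENCODE M21 on the same assembly places 18 transcripts of the gene over 1069479 bases. Of the M21 exon bases, 50.2% lie inside the interval of the table, so RNA from the other exons may be missing from these counts.

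Of the remaining ligands, *Ereg*, *Areg* and *Btc* lie together on chromosome 5. *Ereg* (ENSMUSG00000029377, 91074617 to 91093649) encodes epiregulin, a ligand of EGFR and ERBB4. It was at 26.2, 23.9 and 23.5 CPM in control and at 389.8, 405 and 511 CPM in senescent replicates 1, 2 and 3 (log2 fold change 4.15 ± 0.12, SE, edgeR adjusted p = 7.38e-08). Senescent replicate 3 was the highest library, and without it the log2 fold change was 4.03.

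*Areg* (ENSMUSG00000029378, 91139615 to 91148432) encodes amphiregulin, a ligand of EGFR. It was the scarcest member in control cells, with 4, 5 and 7 counts, and had 84, 113 and 161 counts in senescent cells. As CPM, these were 0.0802, 0.0836 and 0.143 in control and 1.51, 1.43 and 1.91 in senescent libraries, and the groups did not overlap. On the log2 scale, senescent cells differed by 3.98 ± 0.27 (SE, edgeR adjusted p = 6.27e-06), the widest standard error of the 10 members. *Btc* (ENSMUSG00000082361, 91357261 to 91402994) encodes betacellulin, a ligand of EGFR and ERBB4. It rose from 0.541, 0.519 and 0.449 CPM to 4.96, 5.29 and 5.92 CPM (log2 fold change 3.42 ± 0.14, SE, edgeR adjusted p = 3.76e-07). Within a library, the ratio of *Btc* to *Ereg* per exon length was lower in all senescent libraries, at means of 0.0295 ± 0.00183 in control and 0.0179 ± 0.00109 in senescent cells (SD, n = 3 per group, exact permutation p = 0.1, two-sided, the smallest that 3 against 3 can give). The ratio of *Areg* to *Ereg* was 0.0146 ± 0.00565 in control and 0.0128 ± 0.000638 in senescent cells, a difference within the spread of the control libraries (exact permutation p = 1.0).

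*Tgfa* (ENSMUSG00000029999, chromosome 6 from 86195251 to 86275639) encodes transforming growth factor alpha, a ligand of EGFR. Control libraries held 5.47, 5.42 and 6.52 CPM and senescent libraries 22.3, 22.1 and 23.4 CPM. This log2 fold change was 1.96 ± 0.09 (SE, edgeR adjusted p = 9.42e-07), and its confidence interval (1.74 to 2.18) lay below those of the other ligands that rose. *Egf* (ENSMUSG00000028017, chromosome 3 from 129677575 to 129755322) encodes epidermal growth factor, the ligand that gave the family its name. It was the only ligand among the members to fall, from 2.57, 2.16 and 2.00 CPM in control to 1.53, 1.38 and 1.37 CPM in senescent cells. All senescent libraries were below all control libraries (log2 fold change -0.66 ± 0.14, SE, edgeR adjusted p = 0.00323).

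The receptors moved in different directions. *Egfr* (ENSMUSG00000020122, chromosome 11 from 16752203 to 16918158) encodes the receptor for EGF, amphiregulin and TGF-alpha. It was at 25.6, 25.2 and 25.7 CPM in control and at 77.9, 81.2 and 87.6 CPM in senescent libraries (log2 fold change 1.69 ± 0.06, SE, edgeR adjusted p = 2.55e-07). Control libraries agreed closely, with a coefficient of variation of 1.06%. The antisense gene *Egfros* overlaps *Egfr* and had 3 to 19 counts per library.

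*Erbb2* (ENSMUSG00000062312, chromosome 11 from 98412470 to 98437716) fell from 59.6, 66.7 and 65.3 CPM in control to 27.1, 28.2 and 21.0 CPM in senescent cells. The groups did not overlap, and senescent replicate 3 was the lowest library. On the log2 scale, senescent cells differed by -1.33 ± 0.12 (SE, edgeR adjusted p = 2.43e-05), and -1.20 without senescent replicate 3. *Erbb3* (ENSMUSG00000018166, chromosome 10 from 128567523 to 128589652) had 1.52, 1.72 and 1.29 CPM in control and 1.46, 1.40 and 1.22 CPM in senescent libraries. Its values overlapped, and the log2 fold change of -0.16 had a 95% confidence interval from -0.53 to 0.20 (edgeR adjusted p = 0.378).

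**Figure D2:**
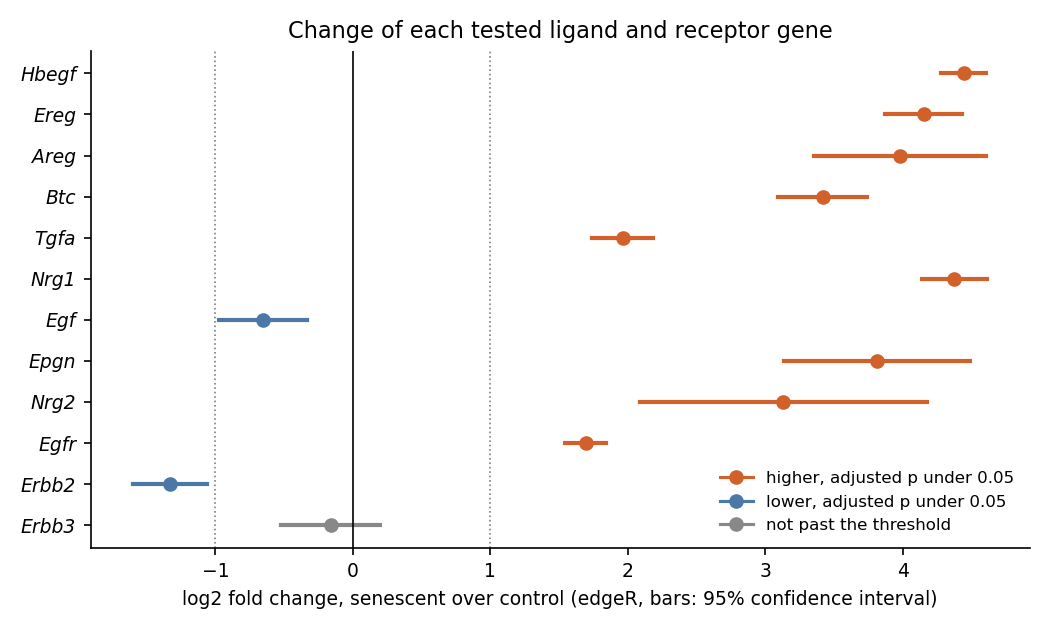
Log2 fold change of senescent over control cells for the 12 tested family genes, with 95% confidence intervals from edgeR and dotted lines at -1 and 1. *Hbegf*, *Nrg1*, *Ereg* and *Areg* lie near 4, *Tgfa* and *Egfr* between 1 and 2.2, *Egf* and *Erbb2* below 0, and the interval of *Erbb3* spans 0.

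Promoter windows of 300 bases, from 250 bases before to 50 after an annotated start, were taken from RefSeq on GRCm38.p6, the assembly that mm10 names. Of the 10 members, 6 matched, with 7 windows, and *Nrg1*, *Ereg*, *Hbegf* and *Erbb3* did not. Because the study examined where the clock factor BMAL1 binds, at E-boxes and AP-1 motifs, both strands were searched for the AP-1 letters TGANTCA and the E-box letters CACGTG. Neither stood in any of the 7 windows or in that of *Epgn*, and they stood in 7.81% and 7.15% of all 32851 windows. The letters of the cyclic AMP response element, TGACGTCA, which were added after seeing the data and share no match with TGANTCA, stood in 1.79% of all windows and, of these 8, in that of *Areg*, from position -61 of the start. The windows of *Areg* and *Btc*, neighbours that rose together, and of *Egfr* and *Erbb2*, receptors that moved apart, are shown 5′ to 3′ on the strand of the gene, with the response element in capitals.
*Areg*, chr5:91139349-91139648, plus strand: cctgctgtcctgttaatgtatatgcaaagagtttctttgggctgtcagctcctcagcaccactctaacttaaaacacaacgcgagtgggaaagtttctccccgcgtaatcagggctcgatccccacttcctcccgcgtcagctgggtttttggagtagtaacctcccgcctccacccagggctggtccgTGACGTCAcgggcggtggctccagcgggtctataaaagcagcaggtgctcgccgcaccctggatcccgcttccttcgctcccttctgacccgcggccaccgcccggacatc
*Btc*, chr5:91402945-91403244, minus strand: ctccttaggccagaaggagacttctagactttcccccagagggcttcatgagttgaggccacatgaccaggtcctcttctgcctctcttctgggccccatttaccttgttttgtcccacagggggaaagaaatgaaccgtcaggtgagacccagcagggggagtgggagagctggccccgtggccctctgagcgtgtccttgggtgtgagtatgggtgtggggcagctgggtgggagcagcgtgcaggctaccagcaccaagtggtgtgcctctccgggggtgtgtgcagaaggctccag
*Egfr*, chr11:16751953-16752252, plus strand: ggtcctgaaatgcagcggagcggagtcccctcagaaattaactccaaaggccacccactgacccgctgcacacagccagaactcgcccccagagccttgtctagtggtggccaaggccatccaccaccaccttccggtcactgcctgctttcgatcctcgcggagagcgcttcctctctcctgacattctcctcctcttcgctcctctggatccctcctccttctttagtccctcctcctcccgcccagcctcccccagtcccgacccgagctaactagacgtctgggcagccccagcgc
*Erbb2*, chr11:98412234-98412533, plus strand: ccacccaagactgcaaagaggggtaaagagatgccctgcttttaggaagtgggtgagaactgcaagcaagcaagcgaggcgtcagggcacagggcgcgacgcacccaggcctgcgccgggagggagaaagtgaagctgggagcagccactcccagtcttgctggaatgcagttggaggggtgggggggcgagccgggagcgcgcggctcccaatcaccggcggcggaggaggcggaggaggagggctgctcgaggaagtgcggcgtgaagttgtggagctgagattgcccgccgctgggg
These matches describe letters in the windows only. The GC content was 59.3% for *Areg*, 60.3% for *Btc*, 62.3% for *Egfr* and 66.0% for *Erbb2*, against a median of 52.7% over all windows.

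To compare levels between genes, CPM was divided by the exon length given in the count table (RPKM, CPM per kilobase of exon). In control cells, *Erbb2* was the most abundant of the 10 at 12.3 ± 0.720 RPKM, followed by *Hbegf* at 7.57 ± 0.183, *Ereg* at 5.93 ± 0.347 and *Egfr* at 2.25 ± 0.0239 RPKM (SD, n = 3). *Tgfa*, *Nrg1*, *Egf*, *Erbb3*, *Btc* and *Areg* followed in this order, from 0.673 down to 0.0853 RPKM. The libraries of *Nrg1* and *Egf*, neighbours in that order, overlapped, and those of the other neighbours did not.

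In senescent cells, *Hbegf* led at 165 ± 9.55 RPKM, followed by *Ereg* at 105 ± 15.9, *Nrg1* at 11.2 ± 0.228, *Egfr* at 7.26 ± 0.436 and *Erbb2* at 4.88 ± 0.744 RPKM (SD, n = 3). *Tgfa*, *Btc*, *Areg*, *Egf* and *Erbb3* followed, from 2.62 down to 0.226 RPKM, and no neighbours overlapped. The place of *Nrg1* depends on the length used. With the longest transcript of GENCODE M21 in place of the exon length, it was at 4.36 per kilobase in senescent cells and ranked 6 in place of 3, and in control cells it ranked 8 in place of 6.

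**Figure D3:**
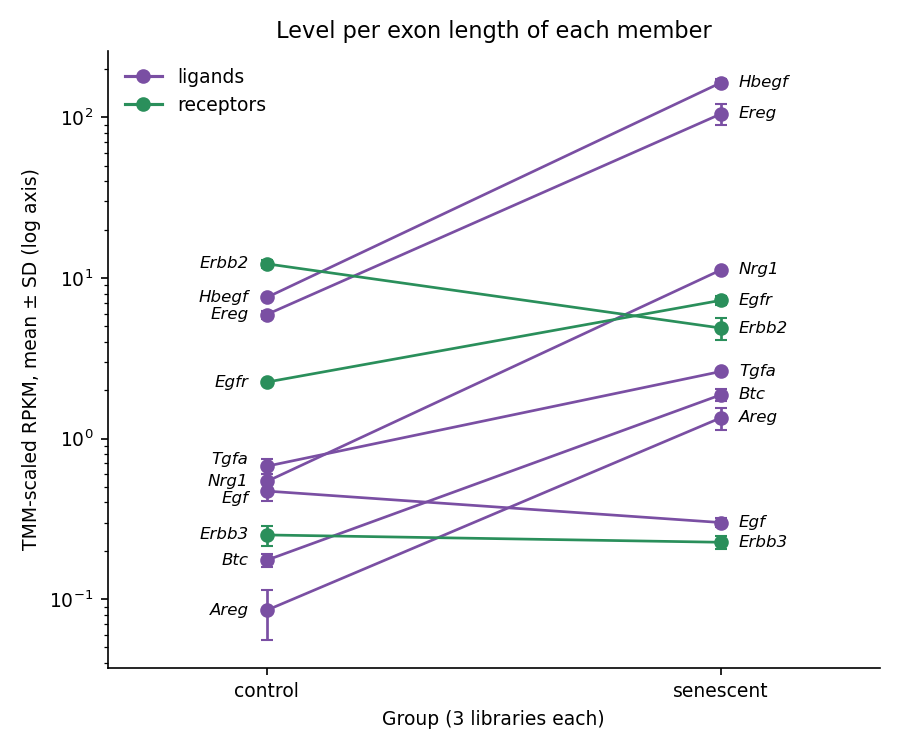
Mean TMM-scaled RPKM ± SD (log axis) of the 10 members in control and senescent cells, 3 libraries each, with ligands in purple and receptors in green. *Hbegf* and *Ereg* stand above 100 RPKM in senescent cells, and the lines of *Egfr* and *Erbb2* cross.

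Ratios within a library do not depend on how libraries are scaled. *Egfr* RPKM was 0.197, 0.173 and 0.181 of *Erbb2* RPKM in control replicates 1, 2 and 3 and 1.32, 1.32 and 1.92 of it in senescent replicates 1, 2 and 3. *Erbb2* was thus the more abundant of the pair in every control library and *Egfr* in every senescent one. The means of this ratio were 0.184 ± 0.0121 and 1.52 ± 0.344 (SD, n = 3 per group, exact permutation p = 0.1, two-sided). *Egfr* made up 15.3% ± 0.843 of the summed RPKM of the 3 receptors in control and 58.8% ± 5.05 in senescent cells.

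The summed RPKM of the 7 ligands rose from 15.4 ± 0.522 to 287 ± 25.7 (SD, n = 3 per group), 18.6-fold, while that of the 3 receptors went from 14.8 ± 0.715 to 12.4 ± 0.427. Without division by length, the receptor sum was 86.7 to 93.6 CPM in control and 106 to 111 CPM in senescent libraries, so its direction depends on this division. The ratio of these sums was 1.15, 0.979 and 1.02 in the control libraries and 22.0, 21.4 and 26.5 in the senescent libraries (exact permutation p = 0.1, two-sided), a 22.2-fold difference of the means. From sums of CPM, without division by length, the ratio was 0.626, 0.541 and 0.562 in control and 7.72, 7.55 and 8.95 in senescent libraries, a 14.0-fold difference. *Hbegf* and *Ereg* together gave 87.4% ± 0.224 of the ligand sum in control and 93.9% ± 0.433 in senescent cells.

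**Figure D4:**
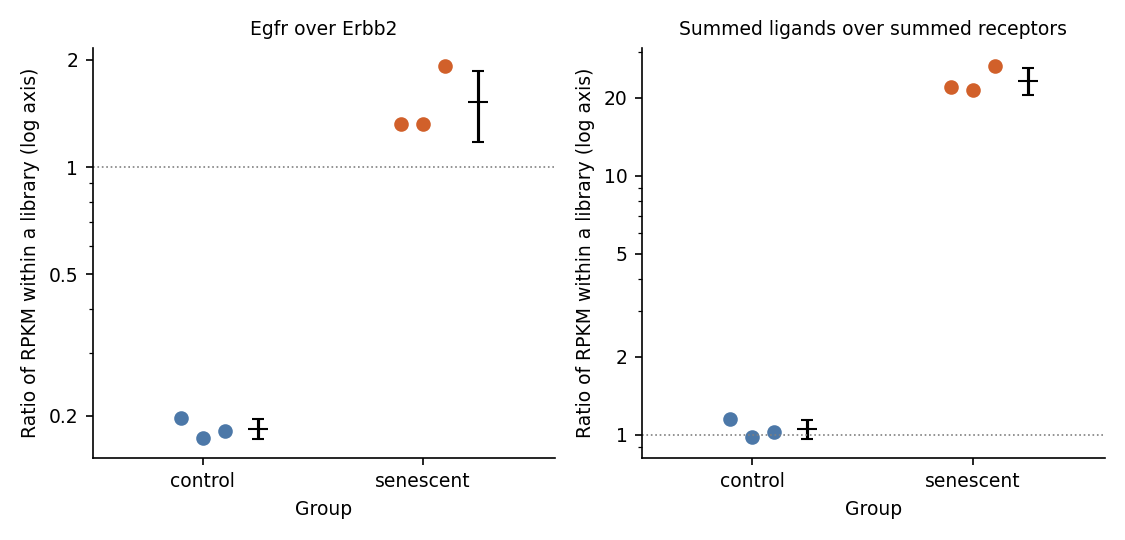
Ratio of *Egfr* to *Erbb2* RPKM (left) and of summed ligand to summed receptor RPKM (right) in each library on log axes, with black marks for the mean ± SD of 3 libraries and a dotted line at 1. The first ratio is below 0.2 in control and above 1.3 in senescent libraries, and the second goes from about 1 to above 20.

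The other genes of the family were scarce. *Epgn* (ENSMUSG00000035020, chromosome 5 from 91027464 to 91035215) encodes epigen, a ligand of EGFR, and lies beside *Ereg*. It had 13, 7 and 5 counts in control and 108, 170 and 220 counts in senescent libraries (log2 fold change 3.81 ± 0.29, SE, edgeR adjusted p = 1.21e-05). *Nrg2* had 1, 2 and 1 counts in control and 11, 17 and 24 counts in senescent libraries, a ratio of 9.41 with a 95% counting interval from 3.46 to 35.8 (adjusted p = 0.000405, edgeR). *Erbb4*, the fourth receptor of the family, had 0 counts in every control library and 10, 19 and 10 counts in the senescent ones, at least 3.14-fold higher than the limit of 3 counts per library allows. *Nrg3* had 0 counts in control and 2, 4 and 8 in senescent libraries (at least 1.06-fold higher), and *Nrg4* had 5, 1 and 0 and then 2, 4 and 8 counts. *Erbb4*, *Nrg3* and *Nrg4* were below the filter for the test. *Epgn* and *Nrg2* passed it only through their senescent libraries. The counting interval of *Nrg2* leaves out the spread between libraries.

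The counts of called genes in the lists around the receptors are read against the 36.2% of all tested genes that were higher and the 34.1% that were lower. Of 13 tested genes around the release of the ligands, the inhibitor gene *Timp3* included, 4 were higher, 4 lower and 5 did not pass the test. Neither count was above its share over all genes, and the median log2 fold change was 0.08 against 0.01 over all genes. *Adam17*, the main protease that sheds HB-EGF, TGF-alpha, amphiregulin and epiregulin, fell from 134 ± 1.33 to 69.6 ± 3.16 CPM (log2 fold change -0.95). *Adam10*, which sheds EGF and betacellulin, was at 149 ± 4.51 and 123 ± 17.0 CPM (-0.28), and *Adam12* (-0.22) and *Adam8* (-1.29) were the other lower genes. The higher genes were the rhomboid protease *Rhbdl2* (from 0.815 ± 0.260 to 2.33 ± 0.148 CPM), *Adam19* (1.15), *Rhbdf2* (0.77), whose product iRhom2 is needed for ADAM17 to mature, and *Timp3* (0.38), which encodes an inhibitor of ADAM17. *Adam10*, *Adam12*, *Rhbdf2* and *Timp3* were named after their values had been seen. Without senescent replicate 3, 7 genes of the list were higher.

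Of 6 partners of the ligands and receptors at the cell surface, 1 was higher and 4 were lower, against 36.2% and 34.1% over all genes, and 5 of 6 called stands beside 70.3% over all genes. The median log2 fold change was -0.73. *Cd44*, a hyaluronan receptor that can carry HB-EGF, rose from 338 ± 11.0 to 1297 ± 127 CPM (log2 fold change 1.94). *Cd9*, a tetraspanin that associates with the HB-EGF precursor, fell from 405 ± 13.01 to 220.2 ± 6.57 CPM (-0.88), and *Sdc1*, a heparan sulfate proteoglycan, fell by 0.96 on the log2 scale.

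Of the 24 genes of the signal relay, 6 were higher, 10 lower and 8 did not pass the test, against 36.2% and 34.1% over all genes. Their median log2 fold change of 0.09 lies between members that went in opposite directions. The adaptor gene *Gab2* rose from 6.96 ± 0.832 to 34.4 ± 1.24 CPM (log2 fold change 2.30), while its relative *Gab1* fell from 33.6 ± 1.38 to 19.05 ± 0.571 CPM (-0.82). *Sos2*, an activator of RAS, rose by 0.99, and *Mapk3*, which encodes ERK1, changed by -0.86. The number of higher genes was 10 without senescent replicate 3 and also 10 with scaling by library size alone.

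Most inhibitors and feedback regulators rose. Of 17 tested genes, 14 were higher and 1 lower, against 36.2% and 34.1% over all genes, and the median log2 fold change was 1.71. *Spry4*, a feedback inhibitor of receptor tyrosine kinases, rose from 1.18 ± 0.0793 to 17.6 ± 0.289 CPM (log2 fold change 3.90, standard error 0.09). *Dusp4*, a phosphatase of MAP kinases, rose from 1.57 ± 0.0681 to 21.9 ± 1.58 CPM (3.80, standard error 0.10). *Errfi1* and *Lrig1*, which encode direct inhibitors of EGFR and were named after their values had been seen, had both log2 fold changes of 1.76. *Lrig3* was the lower gene, from 123 ± 1.79 to 57.2 ± 2.25 CPM (-1.11).

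Genes whose transcription ERK signaling induces were mostly higher as well. The test called 12 of 15 genes higher and 1 lower, against 36.2% and 34.1% over all genes, and the median log2 fold change of the list was 1.32. *Etv1* and *Etv4*, ETS transcription factors, rose by 2.53 ± 0.22 and 2.46 ± 0.14 (SE) on the log2 scale. *Fos* was the gene that fell, from 9.69 ± 0.322 to 5.56 ± 0.609 CPM (-0.80). These lists hold genes that answer to other receptors too, and no signaling was measured here.

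**Figure D5:**
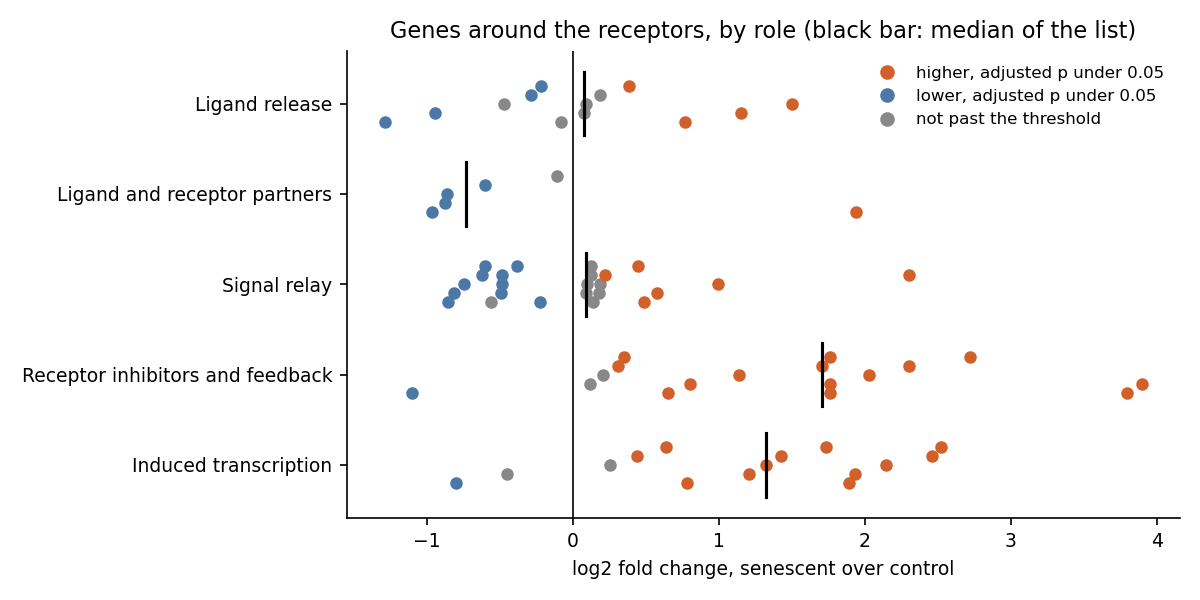
Log2 fold change of each tested gene in 5 lists around the receptors, coloured by the edgeR call, with a black bar at the median of the list. The medians are 1.71 for inhibitors and feedback and 1.32 for induced transcription, near 0 for ligand release and signal relay, and -0.73 for partners.

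Genes with the most similar profile were sought in 12958 genes whose mean reached 100 counts, as the smallest root mean square difference in log2(CPM + 0.5) relative to the control mean over the 6 libraries. For *Hbegf* these were *Fgf10* (0.0868) and *Mmp10* (0.0882), against a median difference of 3.16 over all genes. For *Nrg1* they were *Cyp1a1* (0.0965) and *Igf2* (0.104), for *Ereg* *Bdnf* (0.0545), for *Btc* *Nov* (0.0295) and *Fst* (0.0375), and for *Tgfa* *F2r* (0.0562) and *Tppp* (0.0673). *Egfr* was closest to *Jade1* (0.0252) and *Hsd17b7* (0.0286), *Erbb2* to *Mtss1l* (0.0230) and *Atpif1* (0.0240), and *Egf* to *Ubtd2* (0.0636) and *Map3k5* (0.0643). The measure mostly reflects the size of the difference between groups.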

How the data were processed

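RNA-seq of 3 control and 3 senescent MAF libraries was used. Libraries were made from 200 ng of RNA with a stranded kit for polyadenylated RNA. The authors ran the MAPRSeq pipeline, in which STAR aligned read pairs to mm10 and Subread assigned them to genes, and they deposited raw counts per gene with the exon length. Strand setting and treatment of multi-mapping reads are not given in the sources used here. The 10 members have 1 row each.

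The filter filterByExpr left 17589 genes of the deposited table. After TMM scaling (factors 0.968 to 1.03), the groups were compared by the quasi-likelihood test of edgeR 4.0.16 under R 4.3.3 (robust, two-sided, no term but the group), with Benjamini-Hochberg adjustment over all genes. Standard errors follow from the F statistic. CPM and RPKM use the TMM-scaled library sizes. Folds against 0 counts use 3 counts per library, and counting intervals are exact.

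Sample columns were matched to labels by group and replicate number. Alternatives were RLE scaling, library size alone, no filter, at least 10 counts in every library, DESeq2 1.42.0, a replicate block and leaving out each library. In simulated data of this comparison with 17488 genes tested, 100 of 100 genes changed 2-fold and 100 of 100 changed 4-fold were recovered, with 14 false calls. The simulation gave every gene the same spread and let no library stand apart. It changed only these genes, chosen among well counted ones, so its rates may not hold for scarce genes or for the real libraries.

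The members and lists were chosen with earlier results of these data known. Named genes are all members, all other family genes, and per pathway list up to 2 genes with the largest change in each direction among those with an adjusted p under 0.05 and a mean of at least 100 counts. Of each marker list the most abundant gene is named, and other names are marked as chosen after their values had been seen. Of the listed names, *Nrdc* (present as *Nrd1*) and *Adgre1* had no row and were not analysed here. No protein sequences were used here.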

Additional observations from a re-analysis of the deposited data

How the results depend on the processing

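Of the 10 members, 9 kept their direction and call under all alternatives that could be run, and *Erbb3* stayed above the threshold in all 12 (log2 fold change from -0.27 to -0.05, adjusted p from 0.195 to 0.801, edgeR or DESeq2). *Areg* was removed when every library had to reach 10 counts, which left 6 members higher. Leaving out each library gave 7 members higher and 2 lower each time, with log2 fold changes from 4.40 to 4.47 for *Hbegf*, 4.31 to 4.46 for *Nrg1*, 4.03 to 4.23 for *Ereg*, 1.65 to 1.73 for *Egfr*, -1.40 to -1.20 for *Erbb2* and -0.73 to -0.55 for *Egf*.

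Counts of higher genes moved by over 1.5 times as follows. Signal relay went from 6 to 10 with library size alone and from 4 to 10 over the libraries left out, with 10 without senescent replicate 3. Ligand release went from 4 to 7 over the libraries left out, with 7 without senescent replicate 3. The other family genes went from 2 to 4 without a filter and to 0 with at least 10 counts in every library, where they were not tested. Over all genes, 3134 passed the study's limits upwards, against 5194 without a filter and 1724 with at least 10 counts in every library, which test 29776 and 15205 genes. The ratio of summed ligands to summed receptors differed 22.2-fold between groups per exon length, 14.0-fold without division by length and 20.5-fold with the longest M21 transcript, both added after seeing the data. In 238 comparisons of a count or of this ratio with an alternative, the one with the M21 transcript included, the value moved by at most 1.5 times. With the longest M21 transcript as length, 10 of the 20 group means per length moved by more than 1 SD.

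Deviations of same-numbered libraries from their group means had r = -0.345, 0.261 and -0.236 over 14185 genes for replicates 1, 2 and 3. With 3 libraries per group, and with control replicate 1 and senescent replicate 3 standing apart, these values cannot tell whether the numbers pair the samples. With the replicate block, 7 members were higher and 2 lower, and 5964 genes were higher over all.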

Other observations

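*Epgn*, *Ereg*, *Areg* and *Btc* lie within 375531 bases of chromosome 5 of mm10 (91027464 to 91402994), and all of them rose. Their surroundings were looked at after these values had been seen. From 500 kb before *Epgn* to 500 kb after *Btc*, 10 other genes were tested. By edgeR (adjusted p below 0.05), 6 of them rose in senescent cells and 1 fell. Of all tested genes, 70.3% were called, 36.2% higher and 34.1% lower. The 6 include *Cxcl15*, with 1, 0 and 0 counts in control and 10, 30 and 24 counts in senescent libraries. *Cxcl15* and *Cxcl2* passed the filter only through their senescent libraries, and such genes can hardly be called lower. *Parm1*, the next tested gene after *Btc*, rose from 0.361, 0.602 and 0.695 CPM to 13.1, 14.6 and 14.7 CPM (log2 fold change 4.67 ± 0.18, SE). On the other side of the cluster, the chemokine genes *Cxcl2* (4.88, with 0, 4 and 3 counts in the control libraries) and *Cxcl1* (0.76) were higher, while *Cxcl5* was at 51.3, 53.4 and 51.3 CPM in control and 40.5, 43.5 and 58.0 CPM in senescent libraries (adjusted p = 0.371, edgeR) and *Cxcl3* had an adjusted p of 0.682 by edgeR. *Mthfd2l*, which lies next to *Epgn*, rose by 0.68 ± 0.13 (SE) on the log2 scale. Whether position plays a part was not tested.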
